A study of Mus musculus with 10 samples.

Results

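Cells of the group div12_48_u are splenic B lymphocytes of C57BL/6 mice, an inbred laboratory strain, that were activated, divided in culture and then did not divide again. They were compared here with resting B cells (naive) over every gene of the deposited table. The comparison uses 4 of the 10 libraries of the series, 2 of each group, and 6610 genes made by summing the listed transcripts by gene symbol. The naive cells received no activation. For the other groups, B cells were stimulated for 48 h by antibodies that bind IgM (the antigen receptor) together with CD40 (a receptor for T cell help), and those that had divided by then form the group div12. Those divided cells were then kept another 48 h (Phase II) with 0.12 µg/ml of the CD40 antibody and were sorted into cells that had divided again (div12_48_d) and cells that had not (div12_48_u). The CD40 antibody was therefore present in both Phase II groups and absent from naive cells. The labels describe each Phase I replicate, the naive and div12 libraries among them, as an independent pool of 4 to 5 mice. They do not say how the Phase II replicates relate to animals, so the spread between those libraries may be technical. The p-values rest on a spread between replicates that was pooled over all 5 groups. RNA was taken from 1000000 cells per Phase I library and 500000 per Phase II library, so that the phase, its culture time, the antibody and the number of cells cannot be told apart in the comparison with naive.

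A resting B lymphocyte is a small cell held in G0 by transcription factors such as the Krüppel-like factors and FOXO proteins, with little protein synthesis and with surface receptors that guide it through the spleen. Antigen receptor and CD40 signals raise growth, metabolism and cell-cycle genes and lower many of the genes that mark the resting state. A lymphocyte that stops dividing can become a memory cell, a plasma cell or a dying cell, or can re-enter the cycle, and these states share some but not all of the resting program.

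RNA abundance is given as TPM (transcripts per 1000000), the unit of the deposited table. Sequencing depth is unknown, so no counting interval is given. Differences between groups were taken after a log2(TPM + 1) transformation and carry a standard error; the added 1 makes the changes of weakly expressed genes look smaller. The words rose and fell, higher and lower are used of genes whose two-sided limma p, adjusted by Benjamini-Hochberg, was below 0.05 among 4427 genes tested, those at 1 TPM or more in 2 libraries or more. Log2 differences of 1 and 2 are 2-fold and 4-fold changes. Values of a pair of libraries are given in the order replicate 1, replicate 2.

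Over all tested genes, 675 rose (15.2%) and 1205 fell (27.2%) in div12_48_u against naive, 42.5% in all. The div12 cells from which they came had 858 genes above naive (19.4%) and 2104 below (47.5%), 66.9% in all, and both comparisons use the same naive libraries. Set directly against div12, the div12_48_u cells had 1225 genes higher (27.7%) and 603 lower (13.6%), 41.3% in all. Against div12_48_d they had 594 genes higher (13.4%) and 540 lower (12.2%), 25.6% in all. The split between higher and lower depends on how libraries are scaled: with median-ratio scaling 1126 genes were higher and 903 lower in div12_48_u against naive, and with quantile normalization 1211 and 812. For div12 against naive these splits were 1486 and 1370 and 1472 and 1294, for div12_48_u against div12 786 and 976 and 851 and 856, and for div12_48_u against div12_48_d 478 and 672 and 613 and 593. The median over all tested genes was -0.11 as reported, 0.04 with median-ratio scaling and 0.087 with quantile normalization, a shift against which small differences stand. Leaving out div12_48_u replicate 1 gave 431 higher and 980 lower genes, and leaving out replicate 2 gave 544 and 778.

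**Figure D1:**
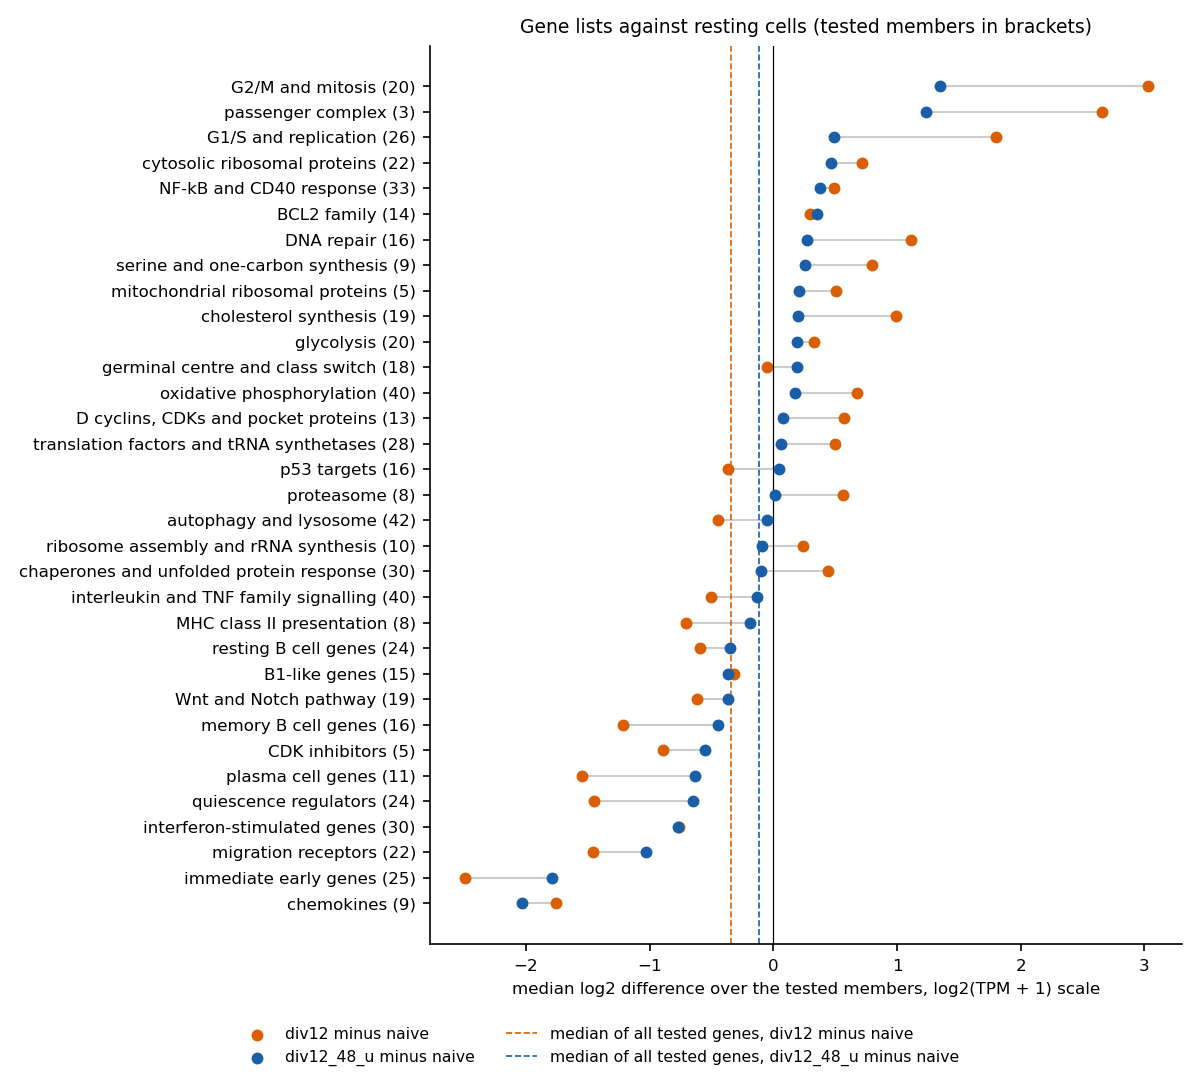
Median log2 difference from naive over the tested members of each gene list, for div12 (orange) and div12_48_u (blue), with dashed lines at the medians over all tested genes. Cell-cycle lists lie above 0 in both groups and nearer to 0 in div12_48_u, and immediate early genes, chemokines, migration receptors and quiescence regulators lie below 0 in both.

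The naive libraries stood apart from the rest in 2 ways that touch the falls below. Their replicates differed from each other more than those of any other group, with 340 genes over 2-fold apart against 65 in div12_48_u. Because the fit pools the spread of each gene over all groups, standard errors and p-values against naive may understate the naive spread. With the compared groups fitted alone, which leaves fewer degrees of freedom, 1116 genes were called in place of 1880. The naive libraries also had the highest levels of markers of other spleen cells. Myeloid markers summed to 2050.3 and 4877 TPM in naive and to 1204 and 1170.1 TPM in div12_48_u, and 21 of 26 tested markers fell while 4 rose. The falls numbered 13 without naive replicate 1 and 12 without naive replicate 2, and the rises 1 without div12_48_u replicate 1 and 2 without its replicate 2. Without a naive library fewer genes reach the filter (4227 and 4217 tested), markers of other cells among them. Erythroid markers summed to 2915 and 3463 TPM in naive and 135 and 149.7 TPM in div12_48_u (9 of 10 fell). T cell markers summed to 939 and 839.9 TPM in naive and 203 and 262 TPM in div12_48_u (10 of 12 fell, 6 without naive replicate 1, and 1, Cd5, rose). NK cell markers summed to 306 and 435 TPM in naive and 12.4 and 15.4 TPM in div12_48_u (7 of 7 fell, and 2 without either naive replicate). Platelet markers summed to 69.6 and 76.0 TPM in naive and 49.3 and 36.0 TPM in div12_48_u (5 of 6 fell, 1 without naive replicate 1 and 2 without naive replicate 2). Stromal and endothelial markers summed to 433 and 381 TPM in naive and 255 and 238 TPM in div12_48_u (2 of 4 fell and 1 rose). Among the markers at 0 in both div12_48_u libraries were C1qa, S100a8, Elane, Fcgr1, Clec4f, Slc4a1, Pf4, Treml1, Klra8, Ncr1, Col3a1, Dcn, Nkx2-3 and Pdgfrb. Other groups held such zeros too: 1 myeloid and 2 stromal markers were at 0 in both naive libraries, and 4 of each list in both div12 libraries. The B cell markers of the div12_48_u libraries summed to 20157 and 19893 TPM and those of naive to 22513 and 23701 TPM (3 of 6 fell and 1 rose). In div12 5 of the 6 were below naive. In bulk RNA, fewer cells of a type and less RNA per cell cannot be told apart.

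**Figure D2:**
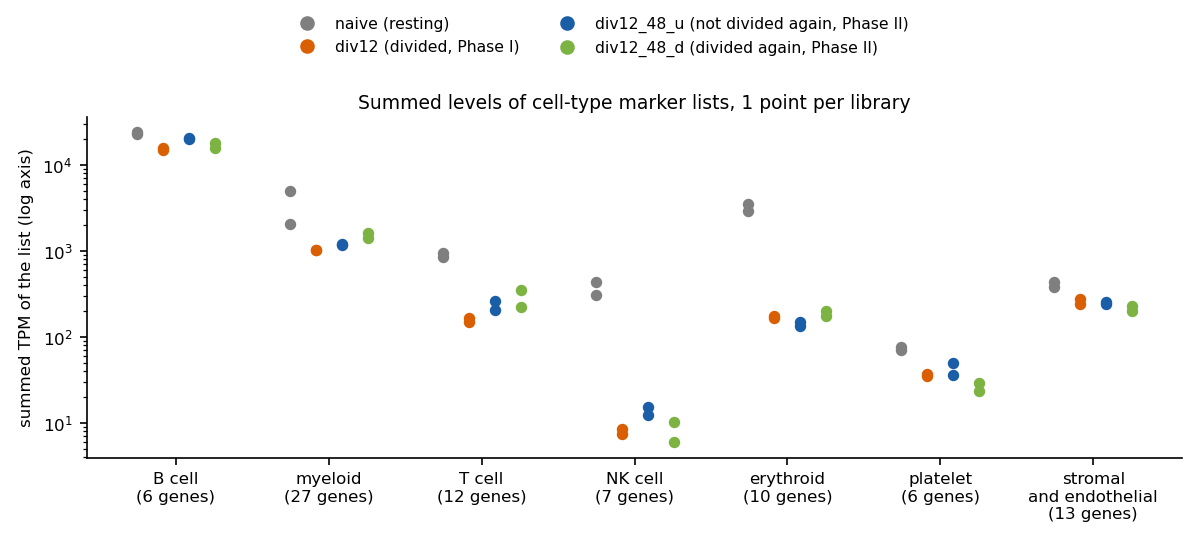
Summed TPM (log axis) of each list of cell-type markers, with 1 point per library for naive, div12, div12_48_u and div12_48_d. B cell markers lie within a narrow band in all groups, whereas the naive libraries are highest for the myeloid, T cell, NK cell, erythroid, platelet and stromal lists.

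Genes of cell division were above the resting level in cells that had stopped dividing, and below the level of the div12 cells. Of 20 tested genes of G2/M and mitosis, 19 rose and 1 fell, with a median of 1.35 (in div12, 19 higher, 1 lower and a median of 3.03). Against div12, 19 of the 20 were lower in div12_48_u and none was higher, and against div12_48_d, the cells of the same cultures that had divided again, all 20 were lower. Birc5 encodes survivin, an inhibitor of apoptosis protein and a subunit of the chromosomal passenger complex of mitosis. It was listed at 27.9 and 33.4 TPM in naive, 540.0 and 505 in div12, 113 and 98.5 in div12_48_u and 317 and 272 in div12_48_d. No library of one group overlapped those of another. Birc5 thus rose by 1.76 ± 0.15 over naive (adjusted p = 7.95e-05, 3.38-fold) and fell by 2.29 ± 0.15 from div12 (adjusted p = 6.75e-05). The other tested members of the complex rose over naive as well: Aurkb, its kinase, by 1.23 ± 0.24 (adjusted p = 0.00369) and Incenp, its scaffold, by 0.87 ± 0.23 (adjusted p = 0.0173).

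Cdk1, the kinase that drives entry into mitosis, stood at 7.66 and 8.02 TPM in naive, 97.0 and 86.3 in div12 and 27.7 and 21.9 in div12_48_u, a rise of 1.54 ± 0.16 over naive (adjusted p = 2.14e-04). Its partner cyclin Ccnb2 stood at 25.5 and 23.2 TPM in naive, 289.9 and 258 in div12 and 85.3 and 58.1 in div12_48_u and rose by 1.50 ± 0.17 (adjusted p = 3.33e-04). For both genes the 3 groups did not overlap, with div12_48_u in the middle. Mki67, the proliferation antigen that coats mitotic chromosomes, stood at 64.1 and 55.4 TPM in naive, 706 and 533 in div12 and 231 and 157 in div12_48_u and rose by 1.66 ± 0.21 (adjusted p = 4.98e-04). The spindle checkpoint kinase Bub1 rose by 1.70 ± 0.21 and the spindle assembly factor Tpx2 by 1.62 ± 0.18. Among the smallest rises were those of the condensin subunit Smc4 (0.37 ± 0.089) and of Ect2 (0.91 ± 0.20), which activates RhoA at cytokinesis. The member that fell was Cdc25b, a phosphatase that activates CDKs (-1.52 ± 0.19). Without div12_48_u replicate 1 the calls of Incenp (adjusted p = 0.112), Ect2 (0.0514) and Smc4 (0.0708) were lost, as were those of Incenp without naive replicate 2 (0.0526), of Ect2 and Smc4 with the compared groups alone (0.0690 and 0.0531) and of Ect2 with the most abundant transcript of each gene (0.0940).

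The promoters of several of these genes are shown because the genes stood high together. Sequences are the 250 bases before the start site, 5′ to 3′ on the gene's strand, from RefSeq (GRCm38.p6). Capitals mark 3 kinds of motif searched on both strands: the CHR (TTTGAA or TTCGAA), which the DREAM and MuvB complexes bind, the CCAAT box (CCAAT, read as ATTGG on the other strand), which NF-Y binds, and E2F sites (TTTGGCGC, TTTCCCGC, TTTGCCGC, TTTCGCGC, TTTGGCGG or TTTCCCGG). No marked motif overlaps another. The survivin promoter (chr11:117848987-117849236, plus strand) holds 1 match, the Cdk1 promoter (chr10:69352913-69353162, minus strand) 6, the Ccnb2 promoter (chr9:70421555-70421804, minus strand) 4 and the Mki67 promoter (chr7:135716380-135716629, minus strand) 5. The promoter of Pcna (chr2:132253181-132253430, minus strand), a replication gene that lay near its resting level, holds 1.
Birc5: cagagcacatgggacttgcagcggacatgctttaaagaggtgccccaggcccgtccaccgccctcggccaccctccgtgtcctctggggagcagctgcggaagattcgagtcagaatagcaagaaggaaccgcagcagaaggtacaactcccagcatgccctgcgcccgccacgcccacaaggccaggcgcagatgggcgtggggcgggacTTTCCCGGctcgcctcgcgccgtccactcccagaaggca
Cdk1: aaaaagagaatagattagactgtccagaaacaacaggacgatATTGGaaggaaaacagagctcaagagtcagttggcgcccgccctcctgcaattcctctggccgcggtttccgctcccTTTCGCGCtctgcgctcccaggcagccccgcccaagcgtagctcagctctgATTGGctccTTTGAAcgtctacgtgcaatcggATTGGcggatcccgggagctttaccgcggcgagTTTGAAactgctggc
Ccnb2: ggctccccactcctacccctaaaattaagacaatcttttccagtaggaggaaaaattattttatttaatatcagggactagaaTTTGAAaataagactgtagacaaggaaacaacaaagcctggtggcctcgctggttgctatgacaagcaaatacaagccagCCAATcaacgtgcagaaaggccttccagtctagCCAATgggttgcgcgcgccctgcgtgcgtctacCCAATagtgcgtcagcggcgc
Mki67: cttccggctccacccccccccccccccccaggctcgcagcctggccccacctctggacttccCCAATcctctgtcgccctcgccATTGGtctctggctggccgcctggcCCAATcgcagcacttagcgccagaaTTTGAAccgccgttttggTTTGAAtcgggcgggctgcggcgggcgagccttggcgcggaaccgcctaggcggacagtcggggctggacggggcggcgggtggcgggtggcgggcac
Pcna: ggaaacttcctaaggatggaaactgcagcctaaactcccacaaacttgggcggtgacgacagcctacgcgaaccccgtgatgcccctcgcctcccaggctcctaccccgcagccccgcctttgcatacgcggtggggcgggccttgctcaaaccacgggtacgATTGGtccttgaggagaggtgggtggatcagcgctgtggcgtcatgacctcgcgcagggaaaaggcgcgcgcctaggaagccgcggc
The only match in the Birc5 window is an E2F site that starts 39 bases before the start site, and that in Pcna is a CCAAT box that starts 87 bases before it. Over all 27025 genes with a listed promoter, 19.6% hold a CHR, 37.5% a CCAAT box and 3.73% one of the E2F sites in such a window. Of the 20 tested G2/M genes 16 had a promoter in the table, of which 6 hold a CHR, 15 a CCAAT box and 1 an E2F site. Of the 26 tested G1/S genes 19 had one, of which 3 hold a CHR, 12 a CCAAT box and 5 an E2F site. A match describes these letters and does not show binding.

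Genes of G1/S and DNA replication were also mostly above rest. Of 26 tested members, 19 rose and 3 fell, with a median of 0.49 (in div12, 24 and 1, median 1.80). The rises numbered 12 without div12_48_u replicate 1 or with the compared groups alone. Rrm2, the ribonucleotide reductase subunit that is made in S phase, stood at 38.3 and 41.4 TPM in naive, 534 and 449 in div12 and 164 and 116 in div12_48_u and rose by 1.77 ± 0.17 (adjusted p = 1.29e-04). The groups did not overlap. Uhrf1, which guides maintenance methylation of DNA, rose by 1.48 ± 0.19 and the cyclin Ccne2 by 1.26 ± 0.20. Pcna, the sliding clamp of DNA polymerases, stood at 556 and 470.4 TPM in naive, 1404 and 1457 in div12 and 592 and 585 in div12_48_u, so that the div12_48_u libraries lay just above both naive libraries and far under div12. The licensing factor Cdt1 was the member with the largest fall, from 302 and 196 to 77.6 and 77.9 TPM (-1.63 ± 0.22). In the DNA repair list 6 of 16 genes rose and none fell, among them Rad54l (1.56 ± 0.24), which acts in homologous recombination, Chek1 (1.25 ± 0.21), a checkpoint kinase, and Brca1 (0.84 ± 0.16); the call of Brca1 was lost with the compared groups alone (adjusted p = 0.0545).

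The regulators of the G1 restriction point gave mixed counts, to be read beside the 15.2% of all tested genes that rose and the 27.2% that fell. Of 13 tested D cyclins, CDKs, pocket proteins and their regulators, 3 rose and 2 fell, but with quantile normalization 5 rose and 1 fell, and with median-ratio scaling 4 and 1. Ccnd2, the D cyclin that B cell receptor signals raise, stood at 97.4 and 107 TPM in naive, 174 and 140.0 in div12 and 191 and 174 in div12_48_u. It rose by 0.83 ± 0.14 over naive (adjusted p = 0.00171), and its difference from div12 did not pass the test (0.22 ± 0.14, adjusted p = 0.222). Cdk4, the partner kinase of D cyclins, rose by 0.98 ± 0.079 from 301 and 312 to 599.7 and 608 TPM. Ccnd3 stood at 157 and 203 TPM in naive and 139.8 and 127 in div12_48_u (-0.42 ± 0.14, adjusted p = 0.0389), a fall whose call was lost in 14 of 21 alternatives (adjusted p up to 0.275), among them without div12_48_u replicate 1 (0.0742), its replicate 2 (0.181) and naive replicate 2 (0.185, a difference of -0.23). The pocket proteins Rb1 and Rbl2, which restrain E2F, showed differences from naive of 0.083 and -0.090 (95% intervals -0.21 to 0.38 and -0.35 to 0.17) and were above div12 by 0.86 ± 0.13 and 0.58 ± 0.11. Cdkn1b, which encodes the CDK inhibitor p27 of resting lymphocytes, stood at 285 and 288 TPM in naive, 111 and 111 in div12 and 156 and 171 in div12_48_u. It fell by 0.81 ± 0.10 from naive (adjusted p = 4.15e-04) and rose by 0.55 ± 0.10 over div12 (adjusted p = 0.00313). The INK4 gene Cdkn2a rose by 1.50 ± 0.26 from 0.822 and 1.09 to 4.17 and 4.91 TPM, while div12_48_d held 57.0 and 45.5 TPM.

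**Figure D3:**
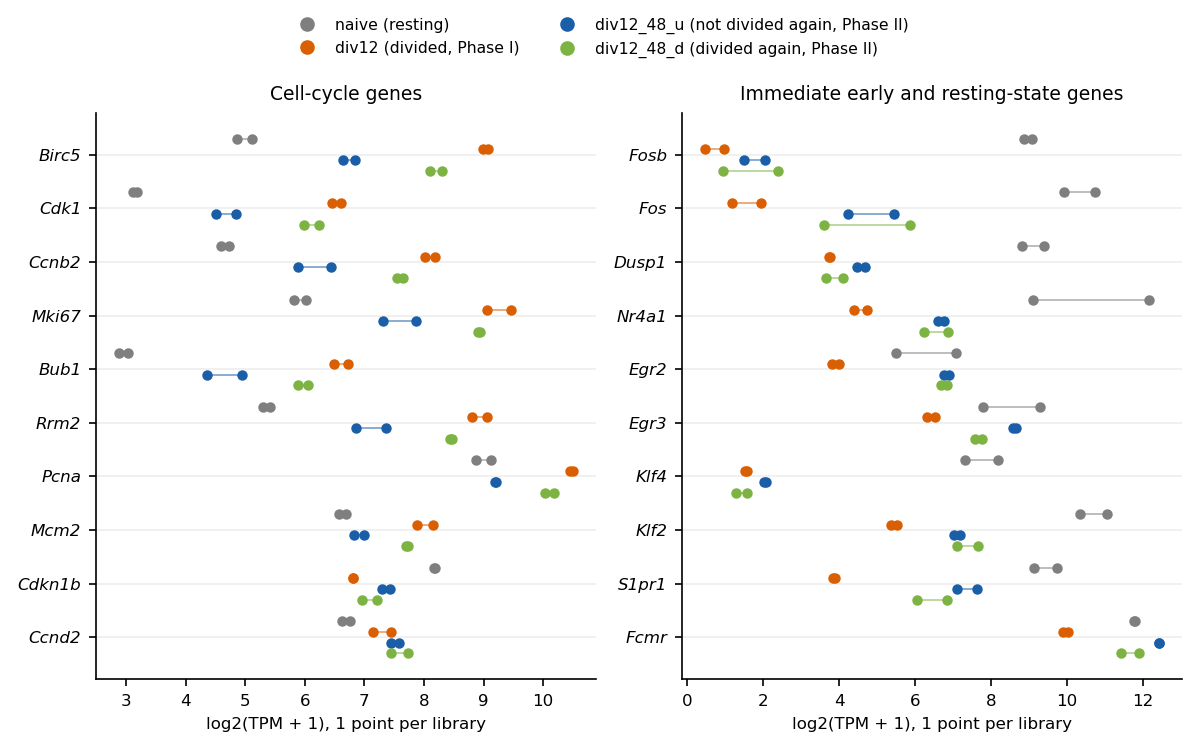
Log2(TPM + 1) of 10 cell-cycle genes (left) and 10 immediate early and resting-state genes (right), with 1 point per library in naive, div12, div12_48_u and div12_48_d and a line joining the libraries of a group. Birc5 and the other mitotic genes of div12_48_u lie between naive and div12, Fosb, Fos, Dusp1 and Klf4 stay far under naive, and the div12_48_u points of Egr2 and Egr3 fall within the naive range while those of Fcmr lie above it.

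The 10 largest rises over resting cells, among non-overlapping genes of at least 10 TPM, were led by Wnt10a and Ccl22. Wnt10a, a secreted WNT ligand, was listed at 4.85 and 7.17 TPM in naive, 211 and 200.5 in div12 and 379.5 and 227 in div12_48_u. It rose by 5.41 ± 0.23 over naive (adjusted p = 4.75e-06, 42.6-fold), and its difference from div12 was 0.51 ± 0.23 (adjusted p = 0.110). Ccl22, a chemokine that attracts CCR4-bearing T cells, was listed at 1.84 and 2.60 TPM in naive, 396 and 374 in div12 and 197 and 83.6 in div12_48_u. Both div12_48_u libraries were above naive and below div12, with replicate 1 the higher, and Ccl22 rose by 5.34 ± 0.44 (adjusted p = 6.72e-05). Havcr1, which encodes the phosphatidylserine receptor TIM-1, rose by 3.75 ± 0.18, to 137 and 117 TPM. The BMP antagonist Nbl1 (3.75 ± 0.13) and the chemokine receptor Ccr1 (3.45 ± 0.14) were also above div12, by 0.91 ± 0.13 (adjusted p = 0.00124) and 0.71 ± 0.14 (adjusted p = 0.00400). The others of the 10 largest rises were Hspg2 (perlecan, 3.71 ± 0.34), Wnt10b (3.63 ± 0.30), Spp1 (osteopontin, 3.46 ± 0.31), Gbp2b (a guanylate-binding protein, 3.28 ± 0.24) and Amigo2 (an adhesion molecule, 3.25 ± 0.17). Reads of Gbp2b may include those of near-identical relatives. Spp1 was listed at 44.4 and 33.2 TPM in div12_48_u and 418 and 284 TPM in div12_48_d, a difference of -3.13 ± 0.31 (adjusted p = 7.39e-04).

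**Figure D4:**
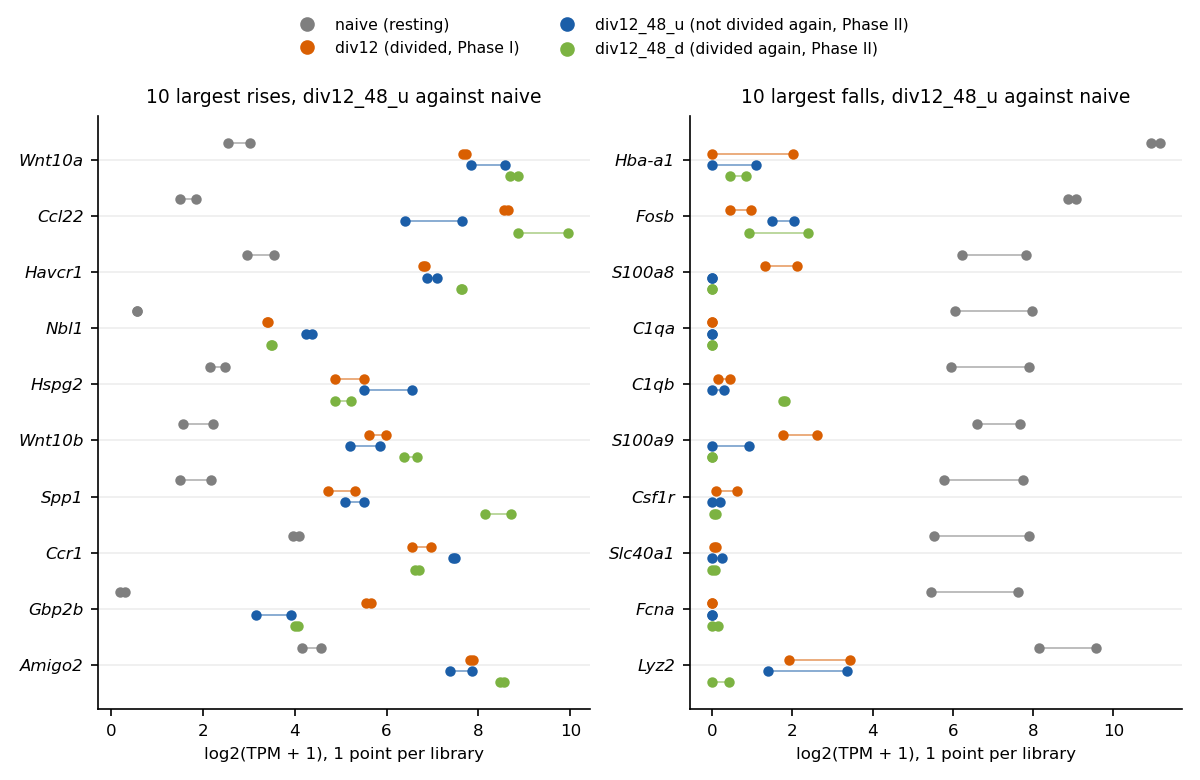
Log2(TPM + 1) of the 10 genes with the largest rise (left) and the 10 with the largest fall (right) in div12_48_u against naive, with 1 point per library and a line joining the libraries of a group. For Wnt10a, Havcr1, Wnt10b and Amigo2 the div12_48_u points lie near div12, and for Hba-a1, C1qa, Fcna and most other falls all cultured groups lie near 0.

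Targets of CD40 and NF-kB signalling were partly above rest: 14 of 33 tested members rose and 5 fell (median 0.37), with 8 falls without naive replicate 2 and 3 without div12_48_u replicate 2. Fas, the death receptor, stood at 23.1 and 17.8 TPM in naive, 227 and 249 in div12 and 124 and 88.0 in div12_48_u and rose by 2.31 ± 0.21 (adjusted p = 1.00e-04). Ebi3, a subunit of the cytokines IL-27 and IL-35, rose by 2.01 ± 0.17. Pim2, a survival kinase, stood at 87.8 and 109.9 TPM in naive, 149 and 129 in div12 and 363 and 319.7 in div12_48_u, above both other groups. It rose by 1.78 ± 0.15 over naive (adjusted p = 8.35e-05) and by 1.29 ± 0.15 over div12 (adjusted p = 5.33e-04). The adhesion receptor Cd44 and the IL-2 receptor chain Il2ra, both above naive in div12, differed from naive by 0.16 and 0.53 in div12_48_u, which did not pass the test (adjusted p = 0.416 and 0.115); Il2ra was called higher with median-ratio scaling (0.68, adjusted p = 0.0353) and with quantile normalization (0.98, 0.00655).

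Among genes of cell survival and death, members with opposite roles rose. Of 14 tested BCL2 family genes, 6 rose and 1 fell. Bbc3, which encodes the pro-apoptotic protein PUMA, stood at 23.3 and 14.9 TPM in naive, 23.5 and 25.4 in div12 and 78.6 and 74.6 in div12_48_u. The div12_48_u libraries were above all others of these groups, and Bbc3 rose by 1.98 ± 0.19 over naive (adjusted p = 1.27e-04) and 1.61 ± 0.19 over div12 (adjusted p = 4.98e-04). The anti-apoptotic genes Bcl2a1a (1.75 ± 0.19, one of several near-identical copies) and Bcl2l1 (1.41 ± 0.20, BCL-XL) and the pro-apoptotic Bid (1.54 ± 0.19) rose too. Bcl2l1 stood at 11.0 and 14.9 TPM in naive, 70.8 and 55.9 in div12 and 42.3 and 30.0 in div12_48_u, with no overlap. Bcl2 itself differed from naive by -0.20 (95% interval -0.50 to 0.10) and was above div12 by 0.68 ± 0.13 (adjusted p = 0.00418). Bmf, a BH3-only protein gene that FOXO factors raise, fell by 0.84 ± 0.15 from naive, to 52.1 and 51.0 TPM from 106 and 82.2, and was above div12 by 1.68 ± 0.15. Of 16 p53 targets, 7 rose and 4 fell, the largest fall being that of the kinase gene Plk2 (892 and 98.7 TPM in naive and 1.77 and 3.24 in div12_48_u), whose naive libraries lay far apart.

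Genes of B cell fates other than rest gave mixed counts. Of 18 genes of the germinal centre and class switching, 9 rose and 6 fell. Id3, an inhibitor of E proteins, rose from 76.7 and 164 to 431 and 486 TPM (2.02 ± 0.28, adjusted p = 7.87e-04). Its relative Id2 fell from 81.7 and 104 to 11.4 and 9.12 TPM (-3.05 ± 0.20, adjusted p = 2.26e-05). Bcl6, the repressor that defines germinal centre B cells, fell by 1.41 ± 0.27. Of 11 plasma cell genes none rose and 5 fell, 3 without either div12_48_u replicate, led by Jchain, the joining chain of secreted IgM and IgA (147 and 331 TPM in naive, 8.10 and 19.5 in div12, 24.5 and 31.1 in div12_48_u and 378 and 464 in div12_48_d). Jchain in the cells that had divided again was therefore above all other groups shown. With genes on the lists of other-cell markers and immediate early genes left out, 4 plasma cell genes fell and none rose. Markers of other spleen cells were highest in the naive libraries. The part of such cells in the falls of Id2, Jchain and the other plasma cell genes was not tested. Prdm1, the plasma cell regulator BLIMP-1, stood at 19.4 and 7.86 TPM in naive, 1.95 and 1.70 in div12 and 8.38 and 8.26 in div12_48_u; the difference from naive did not pass the test (-0.53 ± 0.38, adjusted p = 0.292), did so without naive replicate 2 (-1.13, adjusted p = 0.0181), and the difference from div12 was 1.72 ± 0.38 (adjusted p = 0.00768). Of 16 memory B cell genes 3 rose, Cd80 (1.76 ± 0.17), Ccr6 (1.23 ± 0.16) and Fcrl5 (1.53 ± 0.17), and 8 fell. Of 15 B1-like genes 3 rose, Cd5 (1.21 ± 0.11), Plscr1 (1.47 ± 0.13) and Bhlhe41 (1.15 ± 0.17), and 7 fell. Cd5 is also on the T cell list. With genes on the lists of other-cell markers and immediate early genes left out, 2 B1-like genes rose and 6 fell. Over all tested genes 15.2% rose and 27.2% fell, and the rises in the memory and B1-like lists were not far from that share.

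Chemokines and interferon-stimulated genes lay mostly under the naive level, and interleukin and TNF family genes gave mixed counts. Of 9 chemokines 7 fell and 1, Ccl22, rose. Ccl5 fell from 192 and 273 to 6.10 and 7.97 TPM (-4.85 ± 0.37, adjusted p = 4.52e-05), and Ccl3 and Ccl4 fell by 2.84 ± 0.34 and 2.68 ± 0.50. Of 30 interferon-stimulated genes 16 fell and 5 rose (median -0.77), with 3 rises without div12_48_u replicate 1. Irf7, a transcription factor of that response, fell from 175 and 189 to 13.9 and 17.8 TPM (-3.45 ± 0.26, adjusted p = 4.52e-05), and the antiviral genes Rtp4 and Mx1 fell by 3.14 ± 0.37 and 2.74 ± 0.27. In the interleukin and TNF family list 7 of 40 rose and 12 fell, with 21 not called. These counts lie close to the shares over all tested genes, 15.2% and 27.2%. With quantile normalization 11 rose and 8 fell. The receptor gene Tnfrsf1b and the feedback inhibitor Socs3 fell by 2.40 ± 0.28 and 3.89 ± 0.34, and the cytokine gene Tnf rose by 1.93 ± 0.28. Markers of myeloid, T and NK cells, which also make such chemokines and receptors, were highest in the naive libraries, and their part in these falls was not tested. The receptor gene Tnfrsf1a fell too, from 8.55 and 23.9 TPM in naive to a listing at 0 in both div12_48_u libraries.

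Part of the cytosolic ribosomal protein genes stayed above rest. Of 22 tested cytosolic ribosomal protein genes 19 rose and none fell (median 0.46, and 0.72 in div12), against 12 rises with quantile normalization. Rpl27 stood at 2647 and 2645 TPM in naive, 4036 and 4559 in div12 and 4068 and 4439 in div12_48_u and rose by 0.68 ± 0.085 (adjusted p = 4.32e-04). Its div12_48_u and div12 libraries overlapped, and the difference between these groups was -0.014 ± 0.085. Rpsa, another ribosomal protein gene, stood at 4525 and 4563 TPM in naive, 9709 and 10411 in div12 and 6647 and 7313 in div12_48_u, between naive and div12. Subunits of the elongation factor EEF1 rose (Eef1b2 by 0.71 ± 0.079 and Eef1d by 0.59 ± 0.073). Their translation factor list had 5 rises and 1 fall among 28, with rises close to the 15.2% over all tested genes. With median-ratio scaling there were 12 rises and 0 falls. The list median was 0.061, and 0.109 without div12_48_u replicate 2 and 0.125 without naive replicate 2. Npm1, a nucleolar chaperone of ribosome assembly, rose by 0.53 ± 0.070 and was below div12 by 0.73, at 1555 and 1544 TPM in naive, 3739 and 3676 in div12 and 2228 and 2239 in div12_48_u. It was 1 of 2 genes that rose among 10 of ribosome assembly and rRNA synthesis (median -0.092), against 5 in div12.

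Genes of oxidative phosphorylation and of cholesterol synthesis lay nearer to rest than in div12. Of 40 genes of oxidative phosphorylation 12 rose and 1 fell (median 0.18), whereas div12 had 37 above naive (median 0.67), and 29 of the 40 were lower in div12_48_u than in div12. The count of rises was 23 with median-ratio scaling, 24 with quantile normalization, 8 with the compared groups alone or without naive replicate 1, and 7 without div12_48_u replicate 2. Cox4i1, a subunit of cytochrome c oxidase, rose from 1078 and 1089 to 1644 and 1789 TPM (0.66 ± 0.068, adjusted p = 1.89e-04), with div12 at 1904 and 1950.1 TPM. Phgdh, the first enzyme of serine synthesis, stood at 189 and 184 TPM in naive, 662 and 560.0 in div12 and 320.3 and 326 in div12_48_u, rising by 0.79 ± 0.12 (adjusted p = 0.00128) in a list with 4 rises and no fall among 9 (2 rises without div12_48_u replicate 1). Over all tested genes 15.2% rose and 27.2% fell in div12_48_u, and 19.4% were above and 47.5% below naive in div12. In cholesterol and lipid synthesis 4 of 19 rose and 1 fell, against 11 and 1 in div12. Without div12_48_u replicate 1 none of these rises was called and with median-ratio scaling there were 7. The desaturase gene Scd1 fell by 1.32 ± 0.18, and its relative Scd2 stood at 113 and 117 TPM in naive, 661 and 329 in div12 and 147 and 118 in div12_48_u. In glycolysis 9 of 20 rose and 4 fell (2 fell without either div12_48_u replicate), against 8 and 4 in div12, among them Pgam1 (0.57 ± 0.12) and Aldoc (1.06 ± 0.14), while the lactate exporter gene Slc16a3 fell by 1.38 ± 0.23 (0.65 with quantile normalization and 0.67 with a pseudocount of 5). Of 30 chaperone genes 4 rose and 8 fell, close to the 15.2% and 27.2% over all tested genes. Median-ratio scaling gave 7 rises and 4 falls. It moved the list median from -0.10 to 0.066, and that over all tested genes from -0.11 to 0.04. The list median was -0.14 without div12_48_u replicate 1, -0.074 without its replicate 2 and -0.057 without naive replicate 1. The ER chaperone gene Hspa5 fell from 1215 and 958 to 572 and 579 TPM (-0.91 ± 0.11, adjusted p = 3.97e-04) and was also below div12 (1012 and 962 TPM).

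Quiescence regulators were for the most part still below rest. Of 24 tested members 13 fell and 1 rose (median -0.65), where div12 had 20 below naive (median -1.45). Against div12, 15 were higher and none was lower. Klf2, a Krüppel-like factor that holds lymphocytes in quiescence and drives S1pr1, stood at 2103 and 1292 TPM in naive, 45.2 and 40.3 in div12 and 129 and 144 in div12_48_u. It fell by 3.58 ± 0.24 from naive (adjusted p = 2.33e-05) and was 1.65 ± 0.24 above div12 (adjusted p = 0.00123). Klf4, a related factor, stood at 289 and 158 TPM in naive, 2.0 and 1.85 in div12 and 3.22 and 3.07 in div12_48_u, and Tsc22d3, the glucocorticoid-induced leucine zipper gene, at 1594 and 2124 TPM in naive, 43.4 and 40.5 in div12 and 29.3 and 40.8 in div12_48_u. Neither differed from div12 beyond the test (adjusted p = 0.157 and 0.439). The transcription factors Foxo1 and Bach2 stood between the groups, Foxo1 at 278 and 268 TPM in naive, 92.7 and 72.0 in div12 and 179 and 154 in div12_48_u and Bach2 at 277 and 260.3 TPM in naive, 78.0 and 59.0 in div12 and 144 and 125 in div12_48_u. Both fell from naive, by 0.71 ± 0.16 and 0.99 ± 0.15, and rose over div12, by 1.01 ± 0.16 and 0.98 ± 0.15; Foxo1 lost its call against naive without div12_48_u replicate 2 (adjusted p = 0.0645). Tob1, an antiproliferative gene, stood at 60.7 and 68.1 TPM in naive, 30.9 and 25.3 in div12 and 55.8 and 60.2 in div12_48_u, and its difference from naive was -0.15 (95% interval -0.45 to 0.16). Pik3ip1, an inhibitor of PI3 kinase, went from 133 and 104 TPM in naive to 16.5 and 17.0 in div12 and 76.9 and 109 in div12_48_u, where it overlapped naive and was 2.38 ± 0.24 above div12 (adjusted p = 2.88e-04). The member that rose was Ddit4, an inhibitor of mTORC1 (1.57 ± 0.53, adjusted p = 0.0438); that call was lost in 11 of 21 alternatives, among them leaving out div12_48_u replicate 1 (0.147) or replicate 2 (0.126), and its size ran from 0.49 without naive replicate 1 to 2.64 without naive replicate 2.

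Genes of the resting B cell surface and of antigen presentation were closer to rest than in div12, and some remained below it. Of 24 resting B cell genes 12 fell and 2 rose (median -0.35), and 8 fell and 5 rose with median-ratio scaling. Against div12, 13 were higher and 1 was lower. Fcmr, the Fc receptor for IgM, stood at 3474 and 3517 TPM in naive, 1049 and 944 in div12 and 5509.7 and 5481 in div12_48_u. Both div12_48_u libraries were above both naive libraries, and Fcmr rose by 0.65 ± 0.14 over naive (adjusted p = 0.00688) and 2.46 ± 0.14 over div12 (adjusted p = 6.75e-05). Cd55, the complement decay-accelerating factor, was the member with the largest fall, from 1339.8 and 1376 to 284 and 296 TPM (-2.22 ± 0.11, adjusted p = 7.06e-06). The lineage factors Ebf1 (-0.94 ± 0.13) and Pax5 (-0.74 ± 0.17) and the inhibitory receptor Cd22 (-0.55 ± 0.12) fell; the call of Pax5 was lost without div12_48_u replicate 2 (adjusted p = 0.0714). Of 8 genes of MHC class II presentation 2 fell (median -0.19), close to the 27.2% over all tested genes. In div12 7 were below naive (median -0.70), beside 47.5% of all tested genes. With quantile normalization 4 fell and 1 rose in div12_48_u. Cd74, the invariant chain, stood at 47705 and 42487 TPM in naive, 25728 and 20851 in div12, 38907 and 35912 in div12_48_u and 22672 and 25317 in div12_48_d. The div12_48_u libraries lay below naive and above div12 and div12_48_d, and the difference from naive did not pass the test (-0.27 ± 0.13, adjusted p = 0.116). The 2 that fell were H2-DMb1, part of the peptide exchange factor (-0.66 ± 0.11), and March1, a ubiquitin ligase for MHC class II (-0.50 ± 0.15). The call of March1 was lost in 5 of 21 alternatives, among them without div12_48_u replicate 1 (adjusted p = 0.0799), its replicate 2 (0.123) and naive replicate 1 (0.0964).

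Receptors that guide B cells through the spleen and blood mostly remained below rest. Of 22 tested members 15 fell and 2 rose (median -1.03). Cxcr4, the receptor for CXCL12, stood at 2482 and 1923 TPM in naive, 60.3 and 50.1 in div12 and 143 and 158 in div12_48_u and fell by 3.85 ± 0.17 (adjusted p = 4.93e-06, 14.4-fold). S1pr1, the sphingosine phosphate receptor for egress, stood at 852 and 556 TPM in naive, 14.0 and 13.2 in div12 and 137 and 195 in div12_48_u. It fell by 2.06 ± 0.29 from naive (adjusted p = 7.83e-04) and was 3.50 ± 0.29 above div12 (adjusted p = 1.54e-04), with no overlap of the 3 groups. S1pr3, another receptor of this family that marginal zone B cells express, stood at 64.7 and 43.9 TPM in naive, 10.5 and 7.61 in div12 and 61.0 and 78.4 in div12_48_u, so that div12_48_u overlapped naive (0.37 ± 0.22, adjusted p = 0.200), although without naive replicate 1 it was called higher (0.64, adjusted p = 0.0450). The integrin genes Itgb7 and Itgam fell by 2.37 ± 0.25 and 3.15 ± 0.32. Itgam is also in the myeloid list, whose summed level was highest in naive, and the part of those cells in its fall was not tested. The members that rose were Ccr6 and Lpar6 (1.23 ± 0.16 and 0.77 ± 0.23). Lpar6 lost its call without either div12_48_u replicate (adjusted p = 0.114 and 0.0781), without naive replicate 1 (0.101, a difference of 0.39) and with the compared groups alone (0.106).

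Immediate early genes, which respond within minutes to receptor signals or handling, differed among themselves. Of 25 tested members 17 fell and none rose (median -1.79), and their summed level was 15115 and 9834 TPM in naive and 4233 and 3990.1 TPM in div12_48_u. Fosb, a subunit of the AP-1 transcription factor, stood at 536 and 463 TPM in naive, 0.371 and 0.945 in div12 and 1.83 and 3.14 in div12_48_u and fell by 7.19 ± 0.43 (adjusted p = 1.47e-05). Fos, another subunit, stood at 970.4 and 1702 TPM in naive, 1.25 and 2.85 in div12 and 18.0 and 42.4 in div12_48_u, far under naive in both div12_48_u libraries but above div12 (3.29 ± 0.72, adjusted p = 0.00732). Dusp1, a MAP kinase phosphatase, fell by 4.52 ± 0.21 and Myc, a driver of growth, by 1.79 ± 0.35 (1.16 without naive replicate 1). The EGR factors did not share this pattern. Egr2 stood at 133 and 43.9 TPM in naive, 13.0 and 15.0 in div12 and 119 and 108 in div12_48_u, and Egr3 at 625 and 221 TPM in naive, 91.2 and 78.3 in div12 and 403 and 381 in div12_48_u. Both div12_48_u libraries lay within the range of the naive pair for each gene, and far above div12, where the difference for Egr2 was 2.93 ± 0.42 (adjusted p = 0.00124). Egr1 stood at 414 and 178 TPM in naive, 34.5 and 78.1 in div12 and 691 and 466 in div12_48_u, with both div12_48_u libraries above naive (1.06 ± 0.54, adjusted p = 0.147). The naive pair lay far apart for several members (Nr4a1 at 4603 and 546 TPM and Atf3 at 254 and 14.6 TPM), and without naive replicate 1 Egr2, Egr3, Nr4a3 and Dusp4 were called higher in div12_48_u and 16 members lower.

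The promoters of a member that stayed far under naive and of a member within the naive range are shown for contrast, in the same format. Capitals mark the cAMP response element (TGACGTCA, which reads the same on both strands) and the CArG box, to which serum response factor binds. Of all 27025 genes 1.77% hold the first and 1.62% the second in this window. Of 19 immediate early genes with a listed promoter 2 hold the first (Dusp1 and Maff) and 4 the second (Dusp5, Egr2, Srf and Zfp36). The Dusp1 window is chr17:26508473-26508722 (minus strand), and the Egr2 window is chr10:67537619-67537868 (plus strand). Egr2 has 5 listed start sites, of which 4 hold a CArG box in their window, and the window shown was chosen after the matches were seen.
Dusp1: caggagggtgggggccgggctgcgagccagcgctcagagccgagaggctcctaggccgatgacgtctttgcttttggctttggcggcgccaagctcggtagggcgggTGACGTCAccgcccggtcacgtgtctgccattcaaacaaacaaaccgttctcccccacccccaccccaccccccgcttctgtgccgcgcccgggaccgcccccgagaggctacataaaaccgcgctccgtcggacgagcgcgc
Egr2: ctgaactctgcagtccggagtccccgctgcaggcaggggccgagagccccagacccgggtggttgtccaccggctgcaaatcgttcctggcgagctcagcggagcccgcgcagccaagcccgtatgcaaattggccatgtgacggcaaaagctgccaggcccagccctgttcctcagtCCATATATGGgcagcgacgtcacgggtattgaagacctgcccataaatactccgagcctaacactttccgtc
The element in Dusp1 starts 143 bases before the start site and the CArG box in Egr2 72 bases before it. Zfp36, which also holds a CArG box and encodes an RNA-binding protein that destabilises cytokine transcripts, stood at 1418 and 2255 TPM in naive, 183 and 265 in div12 and 1109 and 1159.6 in div12_48_u. Its difference from naive did not pass the test (-0.66 ± 0.34, adjusted p = 0.150), and it was above div12 by 2.36 ± 0.34. Dusp5, with a CArG box as well, fell from 254 and 40.8 to 7.20 and 8.83 TPM, so that the box was present both in a member far under naive and in members near it.

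Genes of autophagy and the lysosome were near rest, whereas div12 was below it. Of 42 tested members 7 rose and 5 fell against naive, with a median of -0.052 that turned to 0.12 with median-ratio scaling and 0.077 with quantile normalization. Without naive replicate 1 the falls numbered 8. In div12 27 were below naive and 3 above, and against div12 25 were higher in div12_48_u and none was lower. Over all tested genes 15.2% rose and 27.2% fell in div12_48_u, so the share of rises was close to that of all genes. In div12 47.5% of all tested genes were below naive and 19.4% above, and against div12 27.7% were higher in div12_48_u. The median in div12 was -0.45 for the list and -0.35 over all tested genes, and in div12_48_u the latter was -0.11. Ctsa, the protective lysosomal carboxypeptidase, stood at 325 and 319 TPM in naive, 156 and 165 in div12 and 285 and 310.4 in div12_48_u, close under naive (-0.11, 95% interval -0.31 to 0.086). Ulk1, the kinase that starts autophagy, stood at 49.3 and 46.3 TPM in naive, 24.3 and 19.1 in div12 and 44.4 and 43.5 in div12_48_u (-0.12, 95% interval -0.45 to 0.22). Gaa, lysosomal acid glucosidase, was above both groups, at 114 and 119 TPM against 70.0 and 69.6 in naive and 44.9 and 30.1 in div12, a rise of 0.73 ± 0.18 over naive (adjusted p = 0.0116; 0.0640 without div12_48_u replicate 2). Grn, the progranulin gene, rose by 1.54 ± 0.27, from 169.7 and 275 to 698 and 568 TPM, and also stood above naive in div12 (851 and 541 TPM). The cathepsin gene Ctsl fell by 1.14 ± 0.20 and the sialidase gene Neu1 by 0.75 ± 0.11.

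Among all genes, those far from naive in div12 and near it in div12_48_u were taken by rule: called in div12 against naive, not called in div12_48_u against naive, and less than 0.3 from naive on the log2 scale. The rule picks them for that pattern, so the values are a description. The 8 with the largest excess in div12 were Scd2, Phf19, Socs2, Mcm4, Wdr62, Pcna, Blm and Mcm2, out of 274 that met it. Mcm4, of the replicative helicase, stood at 115 and 102 TPM in naive, 338 and 290.2 in div12 and 144 and 124 in div12_48_u, and Mcm2, another subunit, at 102 and 93.7 TPM in naive, 284 and 236 in div12 and 127 and 112 in div12_48_u. Their 95% intervals of the difference from naive were 0.027 to 0.57 and 0.0015 to 0.56, which lie above 0, and both were called higher with median-ratio scaling and quantile normalization. Phf19, a Polycomb-associated protein, stood at 26.0 and 18.3 TPM in naive, 82.5 and 61.6 in div12 and 29.8 and 23.2 in div12_48_u, and Blm, a DNA helicase, at 17.9 and 18.0 TPM in naive, 56.4 and 46.7 in div12 and 23.1 and 18.3 in div12_48_u. Socs2, a feedback inhibitor of cytokine signalling, stood at 5.97 and 3.44 TPM in naive, 18.1 and 13.3 in div12 and 5.41 and 5.84 in div12_48_u, and Wdr62, a spindle pole protein, at 10.6 and 9.55 TPM in naive, 37.4 and 24.7 in div12 and 15.7 and 9.54 in div12_48_u.

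The 8 with the largest deficit in div12, out of 622, were Apoe, Otud1, Zfhx2, Sts, Satb1, Tpd52, Egr3 and Zswim6. Egr3 met the rule as an average of naive libraries far apart (625 and 221 TPM, with 403 and 381 in div12_48_u). Apoe, the lipid carrier apolipoprotein E, stood at 655 and 968 TPM in naive, 25.5 and 28.7 in div12, 693 and 1169 in div12_48_u and 258 and 586 in div12_48_d. Macrophages express Apoe too; the summed level of the myeloid list, given above, was higher in naive than in div12_48_u while 4 of its members rose, and the part of those cells in the Apoe levels was not tested. The 95% interval of its difference from naive was -0.69 to 1.04. Satb1, a chromatin organiser of lymphocytes, stood at 162 and 141 TPM in naive, 33.6 and 24.7 in div12 and 119.5 and 155 in div12_48_u (interval -0.72 to 0.41). Otud1, a deubiquitinase, stood at 64.2 and 75.7 TPM in naive, 11.2 and 9.99 in div12 and 63.5 and 75.3 in div12_48_u (interval -0.37 to 0.35). Tpd52, a vesicle trafficking protein, stood at 94.2 and 95.4 TPM in naive, 17.4 and 21.5 in div12 and 75.1 and 89.8 in div12_48_u and Zswim6 at 30.9 and 30.7 TPM in naive, 7.75 and 6.06 in div12 and 26.7 and 28.0 in div12_48_u. Zfhx2, a homeobox factor, stood at 25.0 and 26.7 TPM in naive, 4.35 and 3.92 in div12 and 21.0 and 20.7 in div12_48_u and the steroid sulfatase gene Sts at 33.8 and 22.5 TPM in naive, 3.90 and 5.36 in div12 and 29.1 and 23.8 in div12_48_u. A p above the threshold does not show that a level equals the resting one.

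**Figure D5:**
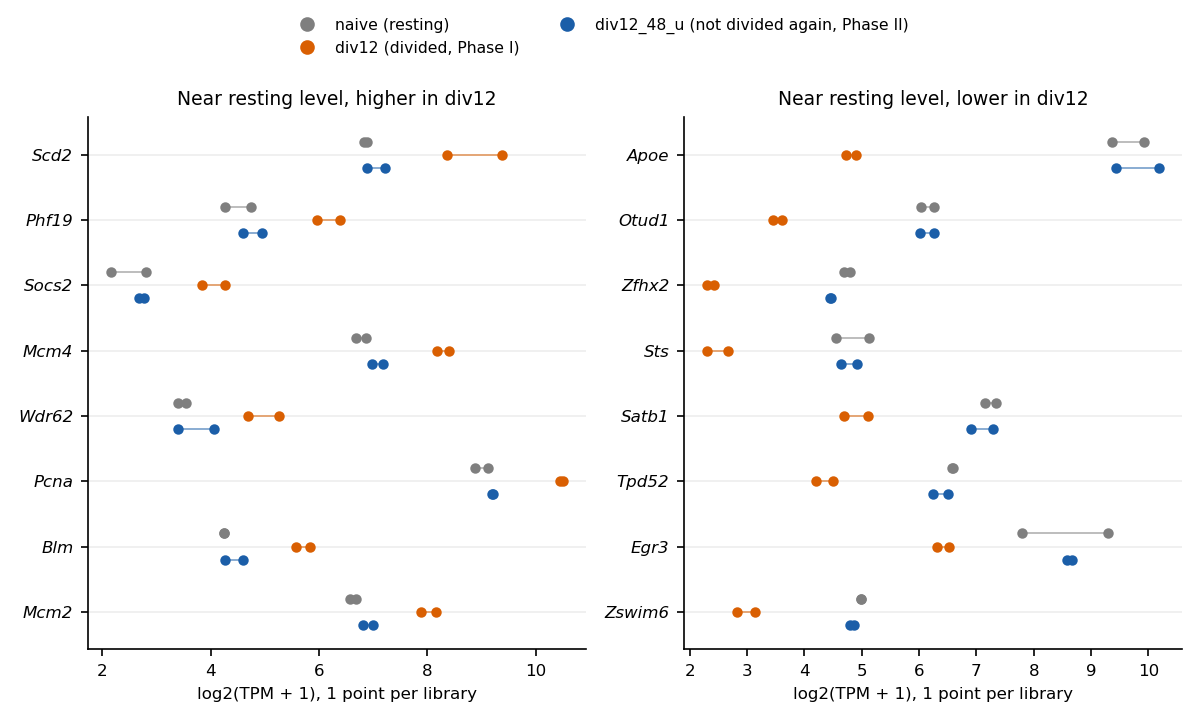
Log2(TPM + 1) of genes less than 0.3 from naive in div12_48_u that were higher (left) or lower (right) in div12, with 1 point per library in naive, div12 and div12_48_u and a line joining the libraries of a group. By construction of the rule the blue and grey points lie close on average and the orange div12 points stand apart. The rule does not bound the spread within a group: the 2 naive points of Egr3 lie on either side of its div12_48_u points.

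The largest falls from rest were genes of other blood cells and Fosb. Hba-a1, an alpha globin gene with a near-identical copy, was listed at 1962 and 2269.7 TPM in naive and 1.12 and 0 TPM in div12_48_u. C1qa, of complement C1q in macrophages, was listed at 65.9 and 249 TPM in naive and at 0 in both div12 and both div12_48_u libraries. Naive replicate 2 was the higher for C1qa, C1qb, Csf1r, Slc40a1, Fcna, Lyz2, S100a8 and S100a9, whose naive levels ran from 42.6 to 750.2 TPM and whose levels in div12_48_u ran from 0 to 9.34 TPM. All these are markers of macrophages, monocytes or neutrophils, and the part of those cells in the falls was not tested. The myeloid markers that rose in div12_48_u were Ms4a7 (2.25 ± 0.35), Adgre1 (1.40 ± 0.41), Mpeg1 (1.04 ± 0.27) and Cybb (0.39 ± 0.092), of which Cybb and Mpeg1 are also expressed by B cells. Calls were lost without div12_48_u replicate 1 for Mpeg1 (adjusted p = 0.0639), Cybb (0.0587) and Adgre1 (0.0967), without its replicate 2 for Mpeg1 (0.0672) and Adgre1 (0.0929), and without naive replicate 1 for Adgre1 (0.0841, a difference of 0.68).

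The sister group div12_48_d shared culture, time and antibody with div12_48_u and differed in having divided again. The counts of 594 genes higher and 540 lower in div12_48_u became 145 and 190 without div12_48_d replicate 1, 198 and 355 without div12_48_u replicate 1 and 350 and 278 without its replicate 2. All 8 tested MHC class II genes were higher in div12_48_u, with a median of 0.69, and 9 of 24 quiescence regulators were higher and 1 lower. Fcmr was higher by 0.77 ± 0.14 (adjusted p = 0.00707), Satb1 by 1.66 ± 0.25 and S1pr3 by 1.95 ± 0.22. B1-like genes went the other way, with 11 of 15 lower in div12_48_u and none higher (median -1.22): Cd5 stood at 28.5 and 28.5 TPM in div12_48_u and 70.4 and 74.7 in div12_48_d, and Anxa2 at 4.44 and 5.33 and 24.0 and 26.7 TPM. Fos, Klf2 and Cxcr4, all far under naive in div12_48_u, did not differ between the sorted groups beyond the test (0.12 ± 0.72, -0.27 ± 0.24 and -0.25 ± 0.17, with adjusted p = 0.932, 0.442 and 0.319).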

How the data were processed

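RNA of mouse splenic B cells was measured in 10 libraries of 5 groups, 2 replicates each. The values are TPM, the unit of the deposited table, in which each row is a transcript with its gene name. Per the submitters' processing notes, the authors used mm10, DESeq2, featureCounts, HISAT2, HTSeq and Salmon, without saying which tool made which values. Transcripts were summed by gene symbol. The log2(TPM + 1) values of all 10 libraries were fitted with limma 3.58.1 (R 4.3.3) with group as the only term, a trended prior and 5 residual degrees of freedom, and p-values were adjusted by the Benjamini-Hochberg method over the 4427 genes that reached 1 TPM in 2 or more libraries. Standard errors and 95% intervals come from that fit. Tables were made with pandas 2.3.3 and numpy 2.4.6 under Python 3.11.15, and figures with matplotlib 3.10.9. Read depth is unknown because TPM keeps none, so low levels carry an unstated counting error. On simulated data (5 runs of 4427 genes, 200 of them changed) 75.8% of 2-fold and 91% of 4-fold changes were recovered, and 5.335% of the calls were false. Each simulated gene had the same spread in every group. In the real data the naive replicates lay further apart than the others, and 1880 genes were called in div12_48_u against naive. The simulated rates may therefore not hold for comparisons with naive.

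The comparison, the gene lists and the tests were chosen with earlier results of these data known. Named genes are the 10 largest rises and 10 largest falls among called, non-overlapping genes of at least 10 TPM, leaving out unnamed models, receptor segments, small RNAs and histones. To these come the 8 highest and 8 lowest in div12 that lay less than 0.3 from naive, up to 4 called members and 2 members nearest naive of each list, and Prdm1, Cdkn1b, Ccnd3, Ccnd2, Myc, Mki67, Aurkb and Birc5. Outside the rule, Adgre1, Bach2, Bcl2, Bcl6, Bhlhe41, Ccnb2, Ccr6, Cd5, Cd74, Cdc25b, Cybb, Ddit4, Dusp4, Dusp5, Egr1, Egr2, Fcmr, Fcrl5, Foxo1, Gaa, Id3, Lpar6, Maff, Ms4a7, Nr4a1, Pik3ip1, Rb1, Rbl2, Rbpj, S1pr1, Srf, Tnf and Zfp36 were chosen after their values were seen. Genes with near-identical copies, such as Hba-a1, Gbp2b, Bcl2a1a and Klra8, may share reads. Some genes are not reported here. Promoter letters come from RefSeq (GRCm38.p6). Alternatives covered scaling, pseudocount, filter, transcript choice, trend, the groups fitted, a replicate block and each library left out.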

Additional observations from a re-analysis of the deposited data

How the results depend on the processing

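Of 21 alternatives, 1, the fit without other-cell markers and immediate early genes, was chosen after seeing the data and gave 670 genes higher and 1135 lower in div12_48_u against naive. The 1880 genes called in that comparison became 1116 with the compared groups fitted alone and 1322 to 1851 with 1 library left out, the lowest without div12_48_u replicate 2. The ranges with 1 library left out were 2493 to 2910 for div12 against naive and 1212 to 2158 for div12_48_u against div12, the lowest of the latter without div12_48_u replicate 1 (1212). For div12_48_u against div12_48_d the range was 335 to 1471, with 335 without div12_48_d replicate 1, 553 without div12_48_u replicate 1 and 628 without its replicate 2. Of 204 named genes and list members called against naive, 149 were called in every alternative that could give a value. Leaving out 1 naive library turned 3 immediate early genes that were not called as reported. Egr3 was -0.67 (adjusted p = 0.00349, limma) without naive replicate 2 and 0.82 without naive replicate 1, and Dusp4 was -0.89 (0.00406) and 1.02. Nr4a3 was 1.18 (0.00261) without naive replicate 1 and -2.16 without replicate 2. A group left with 1 library is assumed to vary like the others.

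With the replicate number as a block, 643 genes were higher and 1145 lower in div12_48_u against naive, 1788 in all. The correlation of same-numbered deviations between naive and div12_48_u was 0.058. It was 0.157 between div12 and div12_48_u and 0.199 between div12_48_d and div12_48_u. Each group has only 2 libraries and the labels do not say that same-numbered libraries share a source, so the numbers were not taken to pair the libraries. The Phase II groups were sorted from cultured div12 cells, so same-numbered libraries of div12_48_u and div12_48_d may share a culture. The counts as reported would ignore such a pairing. The block gave 2911 calls for div12 against naive, 1745 for div12_48_u against div12 and 1017 for div12_48_u against div12_48_d.

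Each group has 2 libraries, and the naive libraries differ from each other more than the others do. Some falls of immediate early genes and of other-cell markers therefore rest on libraries that lie far apart, such as that of C1qa (65.9 and 249 TPM in naive). For others, such as Fosb (536 and 463 TPM) and Hba-a1 (1962 and 2269.7 TPM), the naive libraries lay closer together. Depth is unknown, and differences at low TPM depend on the pseudocount: Gbp2b was 5.19 with a pseudocount of 0.1 and 1.59 with a pseudocount of 5.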

Other observations

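Genes of the Wnt and Notch pathways gave mixed counts. Of 19 tested members 3 rose and 8 fell in div12_48_u (median -0.37; 5 fell without div12_48_u replicate 2). Over all tested genes 15.2% rose and 27.2% fell, so the share of rises was close to that of all genes. With quantile normalization 5 rose and 6 fell (median -0.075). Hes1, a repressor that Notch raises, stood at 115 and 140.1 TPM in naive, 6.85 and 3.28 in div12 and 3.69 and 4.77 in div12_48_u, a fall of 4.62 ± 0.27 (limma, adjusted p = 1.25e-05). Besides Wnt10a and Wnt10b, Rbpj, the DNA-binding factor of Notch signalling, rose by 0.66 ± 0.15, a call that was lost with the most abundant transcript of each gene (0.29, adjusted p = 0.275) and without div12_48_u replicate 1 (0.0536). Notch2, the receptor that marginal zone B cells need, stood at 374 and 354 TPM in naive, 136 and 100.1 in div12 and 218 and 178 in div12_48_u and fell by 0.88 ± 0.16, with no overlap between naive and div12_48_u. The T cell factor gene Tcf7 fell by 1.58 ± 0.37, a call that was lost without div12_48_u replicate 2 (adjusted p = 0.0643) and with the most abundant transcript (0.0685). It is also on the T cell list, whose summed level was highest in naive, and the part of those cells was not tested.

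Of 39 tested histone genes 5 rose and 8 fell (median -0.11), beside 15.2% and 27.2% of all tested genes. The median was 0.00010 without div12_48_u replicate 1 and -0.00090 without naive replicate 1. With quantile normalization 7 histone genes rose and 3 fell (median 0.20), and with median-ratio scaling 5 rose and 5 fell.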
